A study of Mus musculus with 4 samples.

Results

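The 9 genes described here encode receptors with which phagocytes bind and take up dead cells, debris and modified lipoproteins: Mertk, Axl, Itgb5, Msr1, Marco, Cd36, Stab1, Mrc1 and Folr2. They were chosen by name, as listed symbols among the 32285 genes of a single-cell matrix of tumor-infiltrating immune cells. The rule used no measured value, but the list was made with earlier results of these data known. The cells came from subcutaneous tumors of B16-F10 mouse melanoma in wild-type C57BL/6 mice, harvested on day 8 after injection. The melanoma line was 1 clone that made the fluorescent protein ZsGreen (ZsG) when doxycycline was given, and the mice drank doxycycline before the harvest in both groups. Hematopoietic (CD45+) cells were sorted by ZsG brightness, and the ZsG-negative and ZsG-positive gates gave 1 library each. The paper states that this sort took bright cells, and that most lymphocytes holding ZsG were left in the ZsG-negative gate. The name ZsG-negative therefore does not mean that a lymphocyte held no ZsG. A separate sort of T cells was not analysed here. No control tumor without ZsG was among the libraries, and whether a library held cells of 1 or several mice is not stated.

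Clearance of dying cells, or efferocytosis, starts when a phagocyte recognizes phosphatidylserine on the surface of the dying cell. Mertk and Axl are receptor tyrosine kinases of the TAM family that bind phosphatidylserine through the bridging proteins Gas6 and protein S, and the αvβ5 integrin, of which Itgb5 encodes the β chain, binds it through Mfge8. Msr1, Marco and Cd36 are scavenger receptors for modified lipoproteins and other polyanionic or lipid ligands, and Stab1 binds both phosphatidylserine and extracellular matrix fragments. Mrc1 is the mannose receptor (CD206), and Folr2 is the folate receptor β, a marker of resident-like tissue macrophages.

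In the gene annotation of the mouse genome build GRCm38 (GENCODE vM21), Mertk lies at chr2:128698956-128802894 on the + strand, Axl at chr7:25757273-25788705 on the - strand and Itgb5 at chr16:33829665-33949338 on the + strand. Msr1 lies at chr8:39581685-39642673, Marco at chr1:120474538-120505024 and Cd36 at chr5:17781690-17888801, all on the - strand. Stab1 lies at chr14:31139013-31168641 on the - strand, Mrc1 at chr2:14229392-14332057 on the + strand and Folr2 at chr7:101839988-101857194 on the - strand. Mertk overlaps the small RNA gene Gm23172 and Mrc1 overlaps Mir511 on the same strand.

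RefSeq start sites on GRCm38.p6 were given for 8 of the 9 genes. The 250 bases upstream of the start are shown for Mrc1, Stab1 and Folr2, the 3 genes with the highest ratio of macrophage to monocyte level below, so that their upstream sequence can be read beside those levels. The windows are chr2:14229164-14229413 (+) for Mrc1, chr14:31168642-31168891 (-) for Stab1 and chr7:101857191-101857440 (-) for the first of 2 Folr2 entries. Capitals mark the PU.1 core letters GAGGAA on either strand.
Mrc1: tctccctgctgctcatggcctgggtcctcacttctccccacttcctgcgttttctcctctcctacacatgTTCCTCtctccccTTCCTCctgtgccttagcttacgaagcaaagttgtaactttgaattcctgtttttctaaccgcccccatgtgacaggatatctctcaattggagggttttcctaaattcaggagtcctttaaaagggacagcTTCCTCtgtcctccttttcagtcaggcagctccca
Stab1: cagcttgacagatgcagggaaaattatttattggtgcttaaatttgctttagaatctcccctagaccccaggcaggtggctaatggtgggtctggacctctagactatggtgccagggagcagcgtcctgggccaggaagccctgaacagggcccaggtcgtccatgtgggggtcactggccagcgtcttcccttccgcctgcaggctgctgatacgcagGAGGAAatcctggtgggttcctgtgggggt
Folr2: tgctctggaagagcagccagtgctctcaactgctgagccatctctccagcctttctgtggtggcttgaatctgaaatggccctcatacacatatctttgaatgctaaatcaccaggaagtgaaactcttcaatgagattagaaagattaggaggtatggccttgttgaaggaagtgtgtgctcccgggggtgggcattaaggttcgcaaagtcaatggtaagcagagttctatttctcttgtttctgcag
Mrc1 held the GAGGAA core 3 times, at 180, 167 and 35 bases upstream, each on the minus strand relative to the gene. Stab1 held it once, 30 bases upstream, and the printed Folr2 window held none. Axl and Marco held it once each, while Mertk, Itgb5 and Cd36 held none. Of 32851 RefSeq windows of this length, 23.3% held the core. Of the 9 windows of these genes, an AP-1 site (TGANTCA, 6.75% of all windows) was found only in the second Folr2 entry. These are matches of letters, read on both strands, and no binding was measured.

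The 2 libraries held 5437 ZsG-negative and 5168 ZsG-positive barcodes with 47537541 and 56510578 UMIs in total, a UMI being 1 counted RNA molecule. Cells with at least 1000 and fewer than 6000 genes and under 10% mitochondrial UMIs were kept, 4699 and 4123 of them, with medians of 5769 and 9928 UMIs. Clusters were formed without the receptor genes, the other uptake genes below and the pigment genes, and were named from marker genes, so that a name such as DC2 means DC2-like. The ZsG-positive library held 2332 macrophages, 582 inflammatory monocytes, 42 non-classical monocytes, 75 DC1, 217 DC2, 49 mature DC, 21 pDC, 113 NK and 117 T cells. The ZsG-negative library held 2 macrophages, 35 inflammatory and 201 non-classical monocytes, 27 DC1, 65 DC2, 12 mature DC, 200 pDC, 2511 NK and 1486 T cells. Macrophages could therefore not be compared between the gates. Of the kept cells, 5 barcode sequences occurred in both libraries, and 121 ZsG-negative and 574 ZsG-positive cells of mixed or unclear clusters stayed without a name. In ZsG-positive macrophages, summed marker levels were 12.9 CPM for endothelial cells (1 of 4 at 0), 0.101 for fibroblasts, 33.8 for neutrophils and 64.7 for B cells.

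Levels are given as CPM, the UMIs of a gene per 1000000 UMIs of its class, with exact Poisson 95% intervals, and shares of cells with exact binomial (Clopper-Pearson) 95% intervals. All intervals cover counting error only. With 1 library per gate there is no replicate and no test, so a difference is called higher or lower when it passed 1.5-fold with at least 20 UMIs over both classes. Counts were taken near the 3′ end of transcripts, and levels are compared between cells and not between genes.

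Macrophages carried most of the RNA of these receptors. Of the ZsG-positive UMIs of each gene, macrophages held from 69.4% for Axl to 85.4% for Folr2 among the 8 well-counted genes, beside 58.9% of the UMIs of all genes. Marco, a scavenger receptor of some tissue macrophages, was found in few cells: all 16 of its UMIs lay in macrophages, in 0.472% of the cells (0.236 to 0.842), and the ZsG-negative library held 0. It never reached 20 UMIs and is not counted in the ratios between classes below.

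Against all monocytes of the ZsG-positive library, 7 of the 8 other receptors were higher in macrophages and 0 were lower, where 30.8% of the 11357 genes with enough UMIs were higher and 11.3% lower. The median log2 ratio was 1.98 over the 8 receptors and 0.23 over all genes. The lectin and folate receptors and Stab1 stood farthest apart. Folr2 was at 42.4 CPM (40.1 to 44.8) in macrophages and at 2.57 in monocytes, a log2 ratio of 4.04 (3.20 to 5.05). Stab1 was at 59.2 against 6.08 CPM, a log2 ratio of 3.28 (2.73 to 3.90). Mrc1 was at 179 against 25 CPM, a log2 ratio of 2.84 (2.56 to 3.13).

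Mertk stood at 18.3 CPM (16.8 to 19.9) in macrophages and 3.74 in monocytes, 4.88-fold higher. Itgb5 was at 30.9 against 10.3 CPM, 3.00-fold higher. Axl was at 98.1 against 50.8 CPM, which made it the smallest of the differences that passed, at 1.93-fold. Of the scavenger receptors, Cd36 was at 144 against 45.4 CPM, 3.17-fold higher. Msr1 alone was near equal, at 339 CPM (332 to 346) against 295, with a log2 ratio of 0.20 (0.12 to 0.29).

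**Figure D1:**
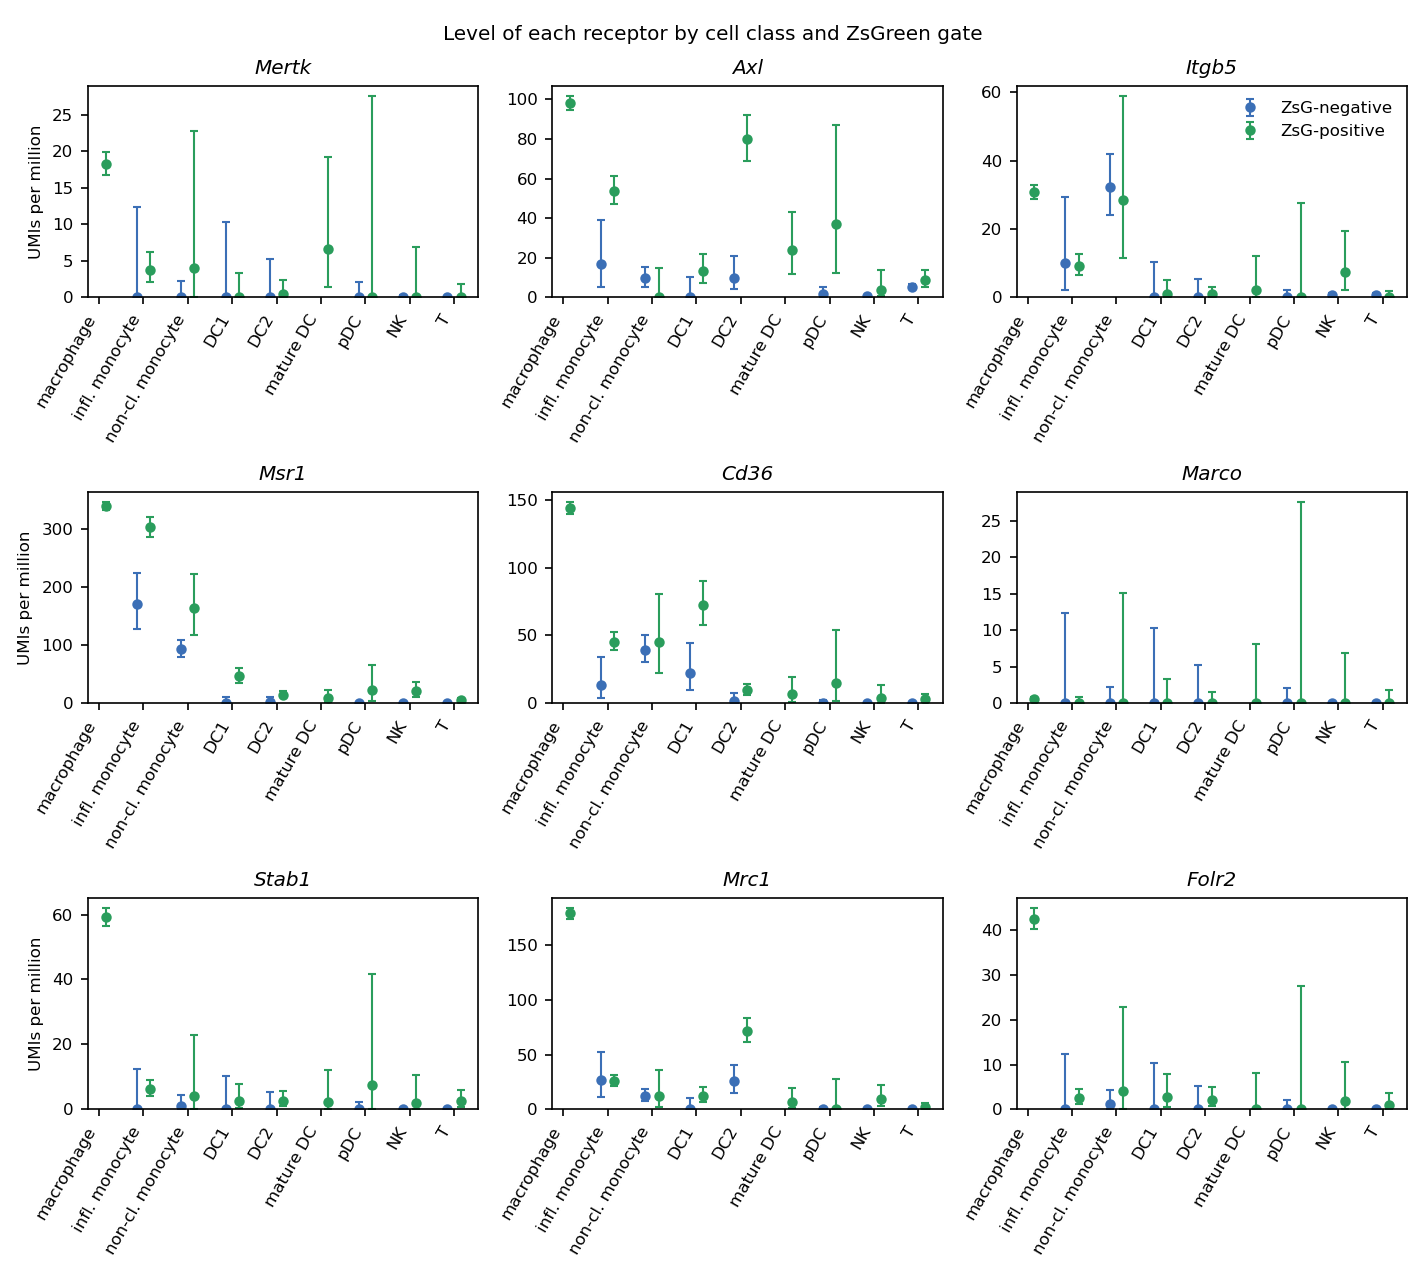
Each panel plots the CPM of 1 receptor (y axis) in the cell classes with at least 20 cells (x axis), blue for the ZsG-negative and green for the ZsG-positive library, with exact Poisson 95% intervals as bars. Msr1 is high in macrophages and inflammatory monocytes alike, at 339 and 303, whereas Stab1 and Folr2 are high in macrophages and at most 7.46 in every other class drawn.

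Over the classes of the ZsG-positive library, the order differed from gene to gene. For Axl it ran from macrophages through DC2, at 79.9 CPM (68.8 to 92.3), and inflammatory monocytes, at 53.9 (46.9 to 61.5), to mature DC at 24.2 (12.1 to 43.2) and DC1 at 13.3 (7.45 to 22.0). The intervals of neighbours overlapped only between mature DC and DC1, and pDC, with 5 Axl UMIs in 21 cells, could not be placed. For Mrc1, DC2 at 71.7 CPM (61.2 to 83.5) came after macrophages and before inflammatory monocytes at 25.8 (21.1 to 31.3). For Cd36, DC1 at 72.8 CPM (57.9 to 90.3) came after macrophages, and inflammatory and non-classical monocytes, at 45.4 and 44.9, did not differ beyond their intervals. For Itgb5, macrophages at 30.9 CPM and non-classical monocytes at 28.6 (11.5 to 58.9) did not differ beyond their intervals. Msr1 ran from macrophages at 339 CPM through inflammatory monocytes at 303 (286 to 320) and non-classical monocytes at 163 (117 to 222) to DC1 at 47.0 (35.2 to 61.5).

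The share of cells with a UMI followed the same picture, but depends on how deeply a cell was counted. In macrophages, with a median of 10842 UMIs, a UMI of Msr1 was found in 86.2% of cells (84.8 to 87.6), of Axl in 54.0%, of Cd36 in 52.1% and of Mrc1 in 51.5%. Stab1 was found in 30.1%, Itgb5 in 26.7%, Folr2 in 20.6% and Mertk in 16.9%. With each cell thinned to 2000 UMIs, which left out 3 macrophages, these shares became 46.6% for Msr1, 17.3% for Axl, 20.3% for Cd36, 21.0% for Mrc1, 8.67% for Stab1, 5.62% for Itgb5, 6.1% for Folr2 and 3.26% for Mertk. Inflammatory monocytes, with a median of 6597.5 UMIs, had thinned shares of 43.5% for Msr1, 8.93% for Axl, 8.25% for Cd36 and 3.09% for Mrc1. Their thinned shares of Stab1, Itgb5, Folr2 and Mertk were between 0.344% and 1.55%. ZsG-positive T cells, with a median of 14250 UMIs, had 1.71% for Msr1 (0.208 to 6.04) and 0 of 117 cells for Axl, a count that at this depth allows up to 2.56% of cells with a UMI (3 counts of the cells). Before thinning, 14 of the 117 T cells had an Axl UMI, at 8.62 CPM (5.02 to 13.8). Among classes of at least 30 cells, the highest thinned share lay in macrophages for 8 of the 9 genes, for Marco from 3 thinned cells. For Itgb5 it lay in non-classical monocytes, at 7.14% (1.5 to 19.5), within the interval of which the macrophage share fell.

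A single macrophage rarely showed many of the receptors at a fixed depth. Thinned to 3000 UMIs, the 2297 macrophages deep enough held a mean of 1.69 of the 9 receptors with a UMI. None was seen in 15.5% of them, 3 or more in 22.5%, and no cell had more than 6. For some pairs, cells with a UMI of one receptor more often had the other. Mrc1 was found in 47.4% (38.1 to 56.9) of the cells with Mertk and in 26.8% (24.9 to 28.7) of those without. It was found in 42.3% of the cells with Stab1 against 25.9% without, and in 45.6% of those with Folr2 against 26.2% without. Pairs without Mrc1 could differ as well. Cd36 was found in 39.7% (30.7 to 49.2) of the cells with Mertk and in 25.4% (23.6 to 27.3) of those without. Stab1 was found in 21.8% (16.2 to 28.3) of the cells with Folr2 and in 10.7% (9.41 to 12.1) of those without. Some other pairs had overlapping intervals. Mrc1 was found in 32.1% (25.7 to 39.2) of the cells with Itgb5 and in 27.4% (25.5 to 29.4) of those without. Folr2 was found in 6.20% (4.31 to 8.60) of the cells with Axl and in 9.07% (7.77 to 10.5) of those without, and Mrc1 in 28.0% against 27.8%. In the C1q-high cluster described next, 812 macrophages were deep enough. There Mrc1 was found in 56.3% (44 to 68.1) of the cells with Mertk against 35.6% without. It was found in 53.2% of those with Stab1 against 34.2%, and in 34.8% of those with Axl against 38.3%. With Folr2 it was 47.6% (38.5 to 56.7) against 35.6% (32.0 to 39.3), with overlapping intervals. The intervals for Mrc1 with and without Stab1 also overlapped in the other clusters. The shares were 16.7% and 20.6% in Ly6i-led, 21.3% and 17.7% in hypoxic and 51.1% and 34.1% in cycling macrophages.

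The macrophages fell into 4 clusters, named here by their leading genes: C1q-high (815 cells), Ly6i-led (794), hypoxic, led by Mmp12 and the heat shock gene Hspa1b with Hilpda and Nos2 (469), and cycling (254). The Ly6i-led cluster raised 5 of 8 macrophage markers and also 6 of 8 inflammatory monocyte markers. These genes were kept out of the clustering, but genes that move with them were not, and Folr2 stood among the 5 leading genes of the C1q-high cluster, so the differences between clusters are a description.

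C1q-high macrophages were higher than Ly6i-led ones for 6 of 8 receptors and lower for 0, beside 12.1% of all genes tested higher and 5.27% lower. Folr2 was at 68.7 CPM (64.1 to 73.6) against 10.3, and Stab1 at 78.6 (73.7 to 83.8) against 15.8. Mertk was at 26.3 against 12 CPM, Itgb5 at 40.2 against 19.2, Cd36 at 171 against 86.7 and Mrc1 at 218 against 119. Axl, at 103 against 108 CPM, and Msr1, at 391 against 321, did not pass. The 2 TAM receptors thus differed: Mertk was lower in the Ly6i-led cells and Axl was not.

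The hypoxic cluster was low in Axl and high in Cd36. Axl stood at 66.8 CPM (58.8 to 75.5) there, below each of the other 3 clusters, and Cd36 at 179 (166 to 193), next to 171 (164 to 179) in C1q-high cells. C1q-high cells were higher than hypoxic ones for 6 of 8 receptors and lower for 0, beside 26.5% of all genes higher and 13.1% lower. The cycling cluster had Stab1 at 87.7 CPM (80.2 to 95.7) and Mrc1 at 226 (214 to 239), each with an interval overlapping that of C1q-high cells. Of the 8 receptors, 2, Mertk and Folr2, were higher in C1q-high than in cycling cells, beside 6.96% of all genes higher and 15.8% lower, and 0 receptors were lower. Mertk was at 12 CPM (9.34 to 15.2) in cycling cells, which had a median of 21571.5 UMIs a cell.

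**Figure D2:**
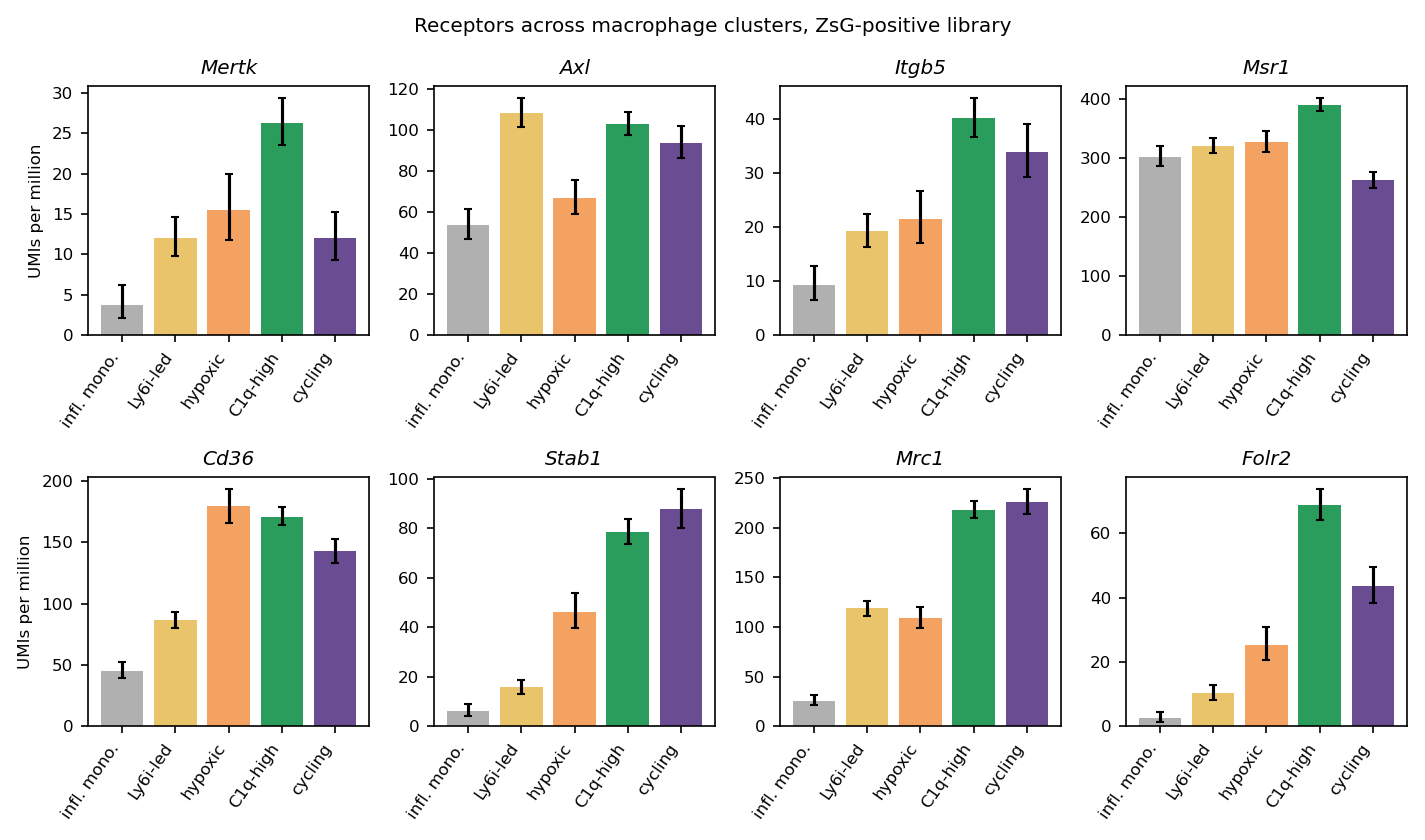
Bars give the CPM (y axis, from 0) of 8 receptors in the inflammatory monocytes and the 4 macrophage clusters of the ZsG-positive library, with exact Poisson 95% intervals. Folr2 rises from 2.48 in monocytes and 10.3 in Ly6i-led cells to 68.7 in C1q-high cells, whereas Axl is as high in Ly6i-led as in C1q-high cells and Msr1 runs from 262 in cycling to 391 in C1q-high cells.

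Even the Ly6i-led cells, the macrophage cluster that shared most markers with monocytes, stood above inflammatory monocytes for 7 of 8 receptors and below for 0, beside 19.3% of all genes higher and 9.71% lower. Mrc1 was at 119 against 25.8 CPM, a log2 ratio of 2.20 (1.91 to 2.51), and Axl at 108 against 53.9, a log2 ratio of 1.01 (0.79 to 1.23). Folr2 was at 10.3 CPM (8.19 to 12.7) against 2.48 (1.19 to 4.57). Msr1 again was near equal, at 321 against 303 CPM. The number of members with a UMI per cell at 3000 UMIs followed the clusters, with a mean of 2.14 in C1q-high, 1.75 in cycling, 1.44 in hypoxic and 1.34 in Ly6i-led macrophages.

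The 2 kinds of monocyte differed in which receptor they carried. Over both libraries, non-classical monocytes, which patrol the vessel wall, had Itgb5 at 31.8 CPM against 9.24 in inflammatory monocytes, a log2 ratio of 1.78 (1.18 to 2.39). They had less Axl, at 8.33 against 51.3, Msr1, at 103 against 293, Mrc1, at 12 against 25.9, and Stab1, at 1.56 against 5.78. That made 1 receptor higher and 4 lower of the 6 with enough UMIs, beside 25.1% higher and 16% lower over all genes. The gates do not hold the kinds evenly, so the same was read within the ZsG-negative library alone, where 2 were higher and 3 lower of 5, beside 25.9% and 15.1%. There Itgb5 was at 32.2 CPM (24.2 to 42) against 10.0 and Cd36 at 39.4 against 13.4. The inflammatory side rests on 35 cells, with 3 Itgb5 and 4 Cd36 UMIs. Over both libraries Cd36 did not pass, at 40.1 against 43.2 CPM. In the ZsG-negative library alone, Axl was at 9.54 against 16.7 CPM. The interval of its log2 ratio, from -2.32 to 0.99, includes 0. That of Mrc1 there, at 11.9 against 26.8 CPM, included 0 as well (-2.41 to 0.23). That of Msr1, at 93.7 against 171 CPM, lay below 0 (-1.33 to -0.38).

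ZsG-positive monocytes as a whole carried more Axl, Msr1, Stab1 and Mrc1 and less Itgb5 than ZsG-negative ones, 4 higher and 1 lower of 6, beside 14% higher and 22.3% lower of 8709 genes. Most of the ZsG-positive monocytes were inflammatory and most of the ZsG-negative ones non-classical, so this difference cannot be told apart from the makeup of the gates. Within inflammatory monocytes, 3 of 6 were higher, beside 17.9% of genes higher and 13.9% lower, and 0 were lower. Axl was at 53.9 CPM (46.9 to 61.5) in the ZsG-positive and 16.7 (5.43 to 39.0) in the ZsG-negative library. Msr1 was at 303 against 171 CPM, a log2 ratio of 0.83 (0.42 to 1.26), and Cd36 at 45.4 against 13.4, a log2 ratio of 1.76 (0.38 to 3.65). Mrc1, at 25.8 against 26.8 CPM, and Itgb5, at 9.18 against 10.0, did not pass. The ZsG-negative side rests on 35 cells. Within non-classical monocytes, where the ZsG-positive side rests on 42 cells, Msr1 was higher, at 163 against 93.7 CPM, 1 of 4 receptors beside 9.89% of genes higher and 20.5% lower. C1qa, a macrophage gene, was at 123 against 26.8 CPM in inflammatory and at 32.7 against 0.597 in non-classical monocytes, and its part in these differences was not tested.

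Among dendritic cells, Axl and Mrc1 were higher in DC2, and Cd36 and Msr1 in DC1. All 8 receptors were higher in macrophages than in the pooled dendritic cells, beside 22.6% of genes higher and 14.6% lower, with log2 ratios from 0.86 (0.65 to 1.07) for Axl to 4.91 (3.55 to 6.79) for Itgb5. Between the classes, DC2, which prime CD4 T cells, carried more Axl, at 79.9 against 13.3 CPM in DC1, and more Mrc1, at 71.7 against 12.4. DC1, the cross-presenting class, carried more Cd36, at 72.8 against 9.5, and more Msr1, at 47.0 against 14.7. These were 2 higher and 2 lower of the 4 with enough UMIs, beside 18.2% higher and 18.5% lower over all genes. Within DC2, Axl was at 86.5 CPM (74.3 to 100.2) in the cluster led by Ifitm1 and at 27.1 (10.9 to 55.9) in the one led by Cd209a, while Mrc1 was at 71.0 and 77.5 with overlapping intervals. Between the gates, DC1 had Cd36 at 72.8 against 22.4 CPM, and 53 Msr1 UMIs against 0. With a floor of 3 counts in the ZsG-negative library, the log2 ratio of Msr1 was 2.48, and its exact lower limit was 2.13. The 53 UMIs lay in 16 of 75 cells, with up to 10 in 1 cell, and the ZsG-negative side rests on 27 cells. Cd36 and Msr1, the 2 receptors with enough UMIs in DC1, stood beside 17.8% of genes higher and 14.2% lower. C1qa was at 117 against 0 CPM in DC1, and its part in these differences was not tested. In the Cd209a-led DC2 cluster, Mrc1, the 1 receptor with enough UMIs, was at 77.5 against 29.1 CPM, beside 12.1% of genes higher and 16.7% lower. This rests on 20 UMIs in 34 cells against 18 in 59, with a log2 ratio of 1.41 (0.42 to 2.42).

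RNA set free from macrophages can give UMIs in any droplet, so each receptor was set beside the level it would have if its ratio to C1qa were that of macrophages. C1qa was at 2397 CPM in macrophages, 117 in DC1, 92.5 in DC2, 98.0 in NK and 41.1 in T cells of the ZsG-positive library. These classes leave out the clusters without a name, so the values hold for the named cells only. Left out were, among others, 237 cells with C1q and DC2 genes and 80 T-like cells led by Pf4 and Ccl8. Axl in DC2, at 79.9 CPM against 3.78 on this measure, Mrc1 in DC2, at 71.7 against 6.90, and Cd36 in DC1, at 72.8 against 7.03, lay far above it. Msr1 in DC1 was at 47.0 CPM against 16.6, and Axl in mature DC at 24.2 against 1.98. Stab1 and Folr2 in DC1 and DC2, at 2.16 to 2.66 CPM, and Msr1 in T cells, at 5.58 against 5.81, lay near it, and whether their UMIs are free RNA was not tested. Msr1 in NK cells, at 20.7 CPM (10.4 to 37.1), had an interval that included the value of 13.9 on this measure.

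**Figure D3:**
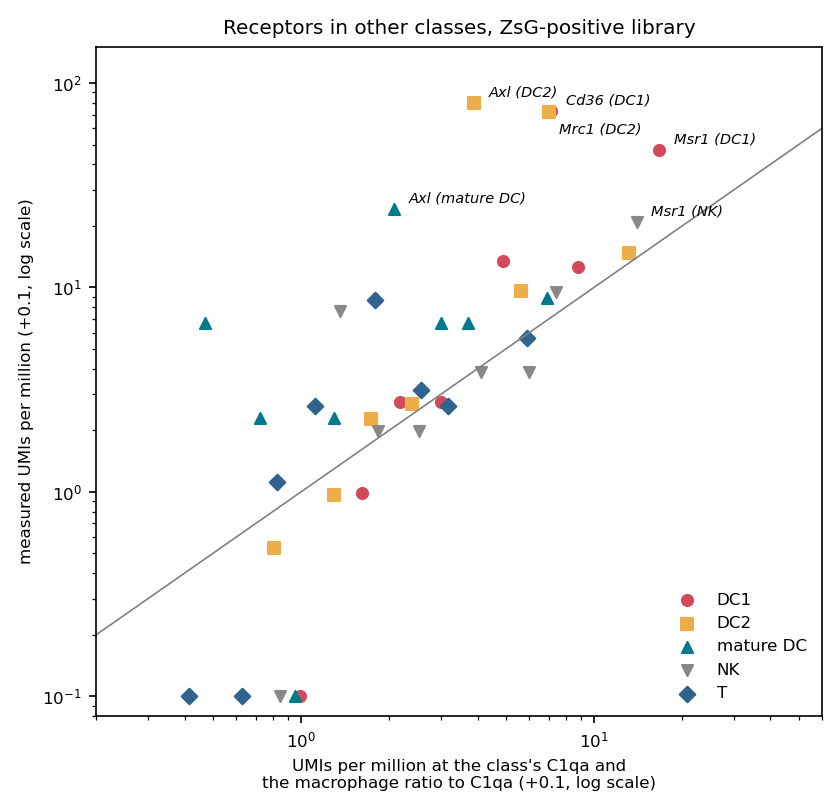
Points give the measured CPM (y axis, log scale, 0.1 added) of the 8 receptors in DC1, DC2, mature DC, NK and T cells of the ZsG-positive library, against the level at which their ratio to C1qa would equal that in macrophages (x axis, log scale, 0.1 added), and the line marks equality. Axl and Mrc1 in DC2 and Cd36 in DC1 stand at 71.7 to 79.9, above the line.

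Axl was also counted in T cells, of which the ZsG-negative library held 1486. There it had 107 UMIs, 5.43 CPM (4.45 to 6.56), against 11 UMIs in the 2511 NK cells, 0.720 CPM (0.359 to 1.29), a log2 ratio of 2.91 (2.02 to 3.96), beside 19.3% of genes higher in T cells and 20.6% lower. C1qa at the ratio of ZsG-positive macrophages would give 0.0747 CPM of Axl in these T cells and 0.0830 in these NK cells. The level measured in NK cells thus also lay above this value. Free RNA of cells other than macrophages is not covered by it and was not tested. A UMI was found in 6.39% of the T cells, with a median of 6824.5 UMIs, and in 0.438% of the NK cells, with 4583. At 2000 UMIs a cell the shares were 0.675% (0.324 to 1.24) and 0.0798% (0.00967 to 0.288). The UMIs lay in the clusters led by Ccl1 and Srm, at 6.44 CPM (4.73 to 8.57), by Ccl4 and Ccl3, at 7.14 (4.78 to 10.3), by Nusap1, at 6.23, by Gzma, at 5.4, and by Areg with Foxp3, at 14.4 (5.79 to 29.7). The clusters led by Klra1 (343 cells) and by Bcl2 and Tcf7 (262 cells) held 0, with upper exact limits of 2.29 and 2.14 CPM, and 2 smaller clusters (70 and 22 cells) also held 0. Median depth was 4514 and 6034 UMIs in the first pair and 35934.5 in the Ccl1-led cluster, but 5111.5 in the Areg-led one. Itgb5, the other receptor with enough UMIs there, was at 0.811 CPM in T and 0.654 in NK cells and did not pass.

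The ZsG-positive gate was set on a fluorescent protein made by the tumor cells. UMIs of the 5 melanocyte pigment genes Pmel, Mlana, Dct, Tyrp1 and Tyr, which encode enzymes and matrix proteins of melanin synthesis, were used as a separate, RNA-based mark of melanoma material. Whether these UMIs came from RNA inside the cells or from free RNA in the droplets was not tested. Of the 2332 macrophages, 499 had at least 1 such UMI, 21.4% (19.7 to 23.1), against 2.41% of inflammatory monocytes, 2.56% of T and 2.65% of NK cells of the same library. At 2000 UMIs a cell the shares were 4.72% (3.90 to 5.66), 0.515%, 0.855% (0.0216 to 4.67) and 1.79% (0.217 to 6.30). The last 2 shares rest on 1 of 117 T and 2 of 112 NK cells, and their intervals overlapped that of macrophages. Of these 3 other classes, only inflammatory monocytes had an interval apart from that of macrophages at this depth. Among the clusters the share was 30.7% in C1q-high, 35.4% in cycling, 13.6% in hypoxic and 12% in Ly6i-led macrophages. At 2000 UMIs a cell it was 5.89% (4.37 to 7.73), 6.30% (3.64 to 10.0), 5.12% (3.31 to 7.52) and 2.78% (1.75 to 4.18). At that depth only the intervals of C1q-high and Ly6i-led cells lay apart. The share also followed depth, from 10.1% to 38.6% over 4 equal bins of macrophages from the fewest to the most UMIs, and macrophages with a pigment UMI had a median of 14633 UMIs against 10048 without. Of the 499 macrophages, 150 had 2 or more pigment UMIs. In the ZsG-negative library a pigment UMI was found in 0.606% of T cells, 0.119% of NK cells and 0.995% of non-classical monocytes.

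Macrophages with a pigment UMI had higher Folr2 and Stab1 levels (CPM) than those without, 2 receptors of 8, beside 5.28% of genes higher and 3.89% lower. Folr2 was at 63.6 against 34.3 CPM, a log2 ratio of 0.89 (0.73 to 1.05), and Stab1 at 86.5 against 48.7, a log2 ratio of 0.83 (0.69 to 0.97). Itgb5 and Mrc1, both with a log2 ratio of 0.46, and Cd36, with 0.34, had intervals above 0 but did not pass 1.5-fold. Msr1 was at 0.12 and Axl at 0.06 (-0.06 to 0.18), and Mertk, a receptor for dying cells, was at 20.2 against 17.6 CPM, a log2 ratio of 0.20 (-0.07 to 0.47). Shares were also read in cells thinned to 3000 UMIs, with the pigment UMI taken from the whole cell. Folr2 was found in 13.1% (10.2 to 16.4) of cells with and 7.11% (5.97 to 8.40) of cells without. Stab1 was found in 16.1% and 10.4%, Mrc1 in 35.8% and 25.6%, Cd36 in 32.2% and 24.4%, and Itgb5 in 12.1% and 7.56%. The intervals lay apart for each of these. They overlapped for Axl, at 23.9% and 22.9%, Msr1, at 62.8% and 56.7%, and Mertk, at 6.24% and 4.72%. By CPM in the thinned cells Itgb5 had a log2 ratio of 0.69 (0.24 to 1.12).

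For Folr2 and Stab1 the difference was smaller within each of the 4 macrophage clusters than over all macrophages, whereas other receptors passed within single clusters. With the clusters weighted alike in both arms, the log2 ratio was 0.50 for Folr2 and 0.47 for Stab1, and 0 of 8 receptors passed. With the 4 depth bins weighted alike it was 0.77 and 0.64, and 2 passed. Within C1q-high macrophages Folr2 was at 88.1 against 58.3 CPM, a log2 ratio of 0.60 (0.40 to 0.80), and Stab1 had 0.36 (0.17 to 0.55). Within Ly6i-led cells 2 other receptors passed, Cd36 with 0.63 (0.35 to 0.91) and Mertk, from 20 and 77 UMIs, with 0.77 (-0.02 to 1.49), while Folr2, with 9 and 74 UMIs, had -0.33 (-1.51 to 0.67). Within cycling cells 4 receptors passed, Stab1 with 0.78, Cd36 with 0.63, Folr2 with 0.61 and Msr1 with 0.60. The share of all genes past 1.5-fold was not computed within clusters or for the weighted arms. These counts therefore have no background to be read beside. When the pigment UMI too was taken from cells thinned to 3000 UMIs, which left 155 cells with one, Folr2 had a log2 ratio of 0.38 (-0.32 to 1.01) and 0 passed.

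**Figure D4:**
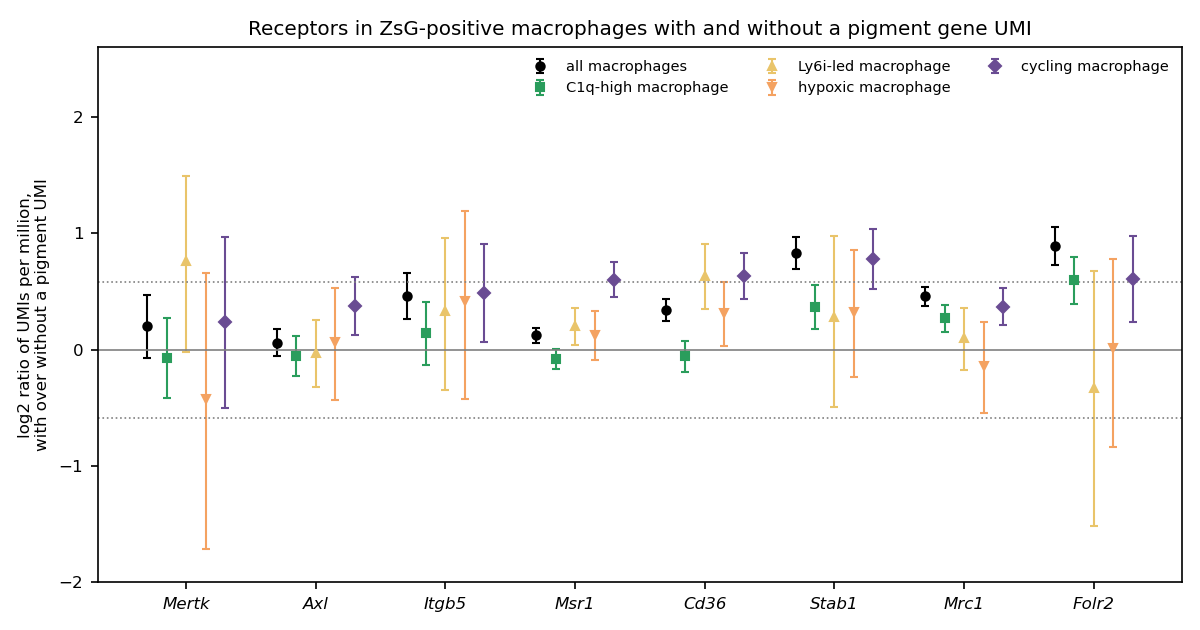
Points give the log2 ratio (y axis) of CPM in macrophages with over without a pigment gene UMI, for 8 receptors (x axis), over all ZsG-positive macrophages and within each cluster, with exact 95% intervals, and dotted lines mark 1.5-fold in either direction. Folr2, at 0.89, and Stab1, at 0.83, pass over all cells, but within C1q-high cells they stand at 0.60 and 0.36, and Axl lies between -0.06 and 0.06 except in cycling cells, at 0.37.

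Of the other genes of uptake, 58 of 59 listed were in the matrix and 41 had enough UMIs in macrophages and monocytes. Of these 14 were higher in macrophages, 6 lower and 21 neither, 34.1% and 14.6%, which lies near the 30.8% higher and 11.3% lower over all genes. The same background holds for the counts by role that follow, each over at most 8 genes. Of the genes of lipid efflux and its nuclear receptors 5 were higher and 1 lower of 8. Abca1, the cholesterol exporter, was at 37.4 against 3.74 CPM, a log2 ratio of 3.32 (2.61 to 4.13). Nr1h3, the sterol sensor LXRα, was at 39.8 against 5.15 CPM, and Abcg1, a second exporter, at 68.7 against 24.3, while Nr1h2 (LXRβ) did not pass. Among the other scavenger receptors 4 were higher and 1 lower of 8, with Cxcl16 at 278 against 88.5 CPM, Lrp1 at 225 against 121 and Cd68 at 779 against 513. Clec4n, at 204 against 171 CPM, did not pass. Of the lectin and folate neighbours, Timp2, an inhibitor of metalloproteases, was at 115 against 20.4 CPM, and Slc46a1, the folate transporter, had 40 UMIs against 1, a log2 ratio of 2.52 (-0.04 to 7.86), both higher of the 2 with enough UMIs.

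The bridging ligands went both ways, 1 higher and 3 lower of 5. Gas6, the ligand of Axl and Mertk, was at 5.62 CPM (4.8 to 6.54) in macrophages and 0.468 in monocytes, a log2 ratio of 3.59 (1.71 to 6.64). Pros1, which encodes the other TAM ligand protein S, was at 11 against 32.5 CPM, a log2 ratio of -1.56 (-1.85 to -1.27). Thbs1, thrombospondin 1, was at 157 against 242, and Anxa1 did not pass. Tyro3, the third TAM receptor, had 0 UMIs in macrophages and in monocytes. Of the phosphatidylserine receptors 1 of 5 was higher, Timd4, named after its values were seen, from 20 UMIs against 1 with a log2 ratio of 1.52 (-1.12 to 6.90). Timd4 was at 0.673 CPM in macrophages and higher, at 5.13 CPM, in the pooled dendritic cells. Cd300lf, Itgav, Havcr2 and Cd300lb did not pass, with log2 ratios from -0.46 to 0.09. The engulfment machinery had 1 higher and 2 lower of 8, of which Mfge8 is also one of the 3 lower bridging ligands, and Rac1, Rhog, Dock2 and Crk had log2 ratios from -0.41 to -0.18. Of the 4 genes that signal against engulfment (Sirpa, Cd47, Pirb and Lilrb4a) and the 2 sheddases (Adam17, Adam10), 0 passed. Between macrophages with and without a pigment UMI, 5 of the 41 were higher and 2 lower, beside 5.28% and 3.89% of all genes. Higher were Gas6, with a log2 ratio of 0.73 (0.26 to 1.2), Nr1h3, with 0.61, and Timp2, with 0.77. Timd4, with 0.80 (-0.70 to 2.21), and Slc46a1, with 0.80 (-0.21 to 1.77), were also higher, but their intervals include 0. Thbs1 had -0.95 (-1.07 to -0.84) and Olr1 -0.66 (-1.35 to -0.02). These values are over all macrophages and were not read within clusters or at equal depth.

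**Figure D5:**
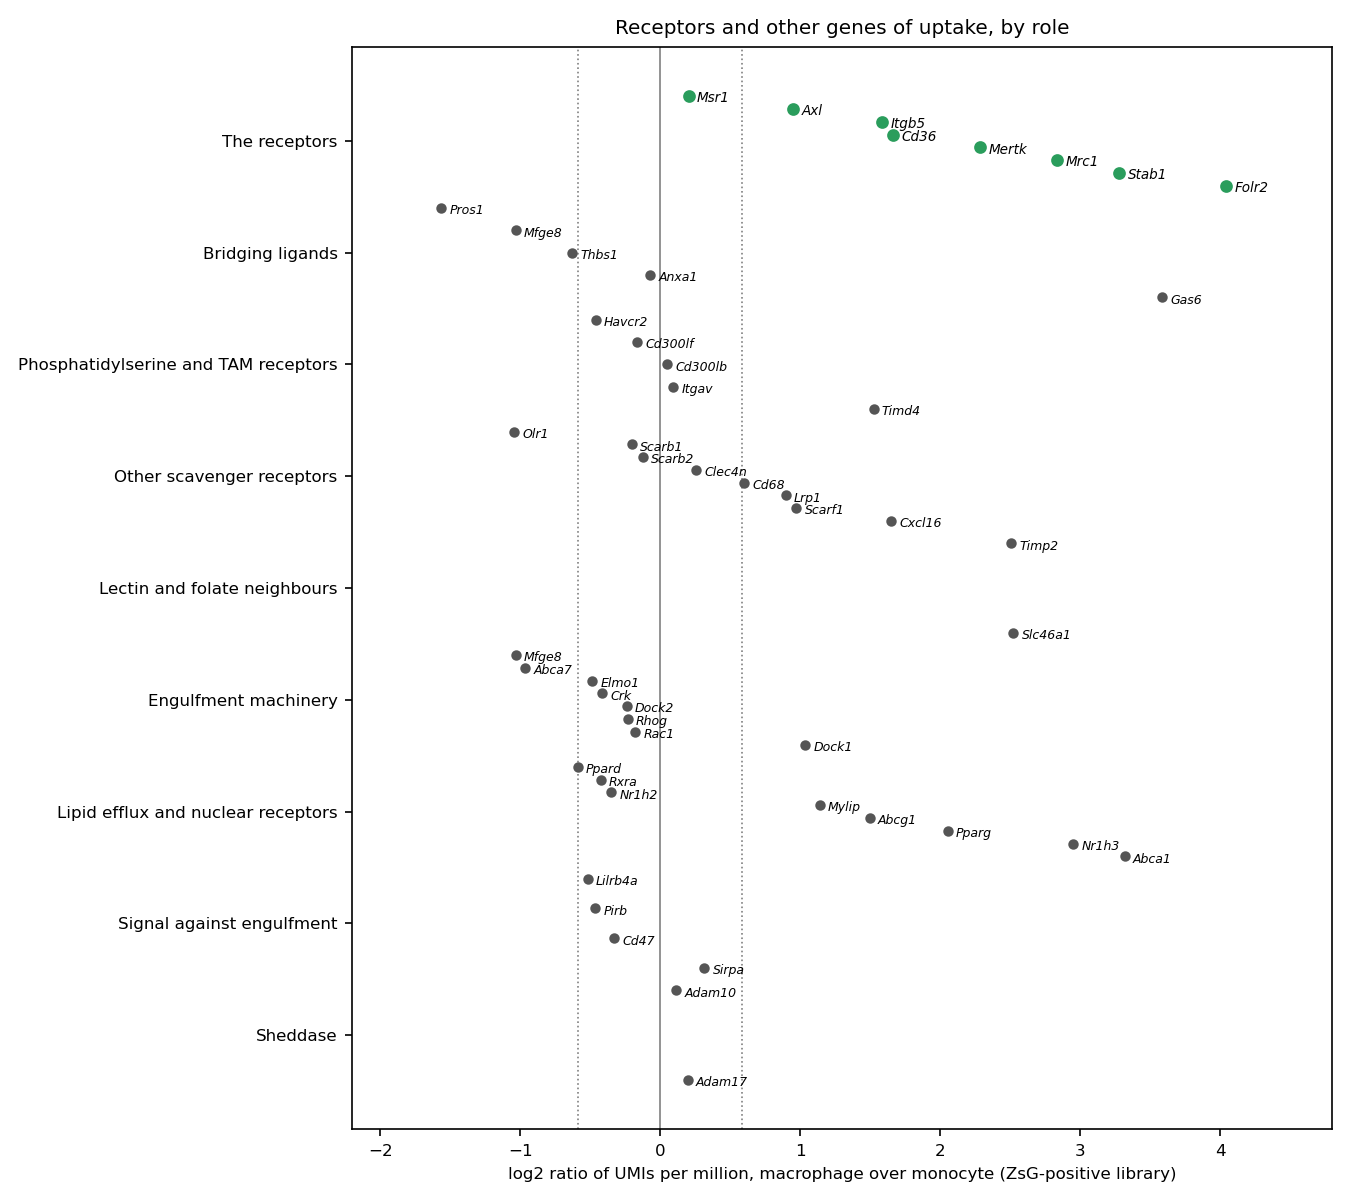
Points give the log2 ratio of CPM (x axis) of macrophages over monocytes in the ZsG-positive library, for the 8 receptors (green) and the other uptake genes with enough UMIs (grey), grouped by role, with dotted lines at 1.5-fold. Abca1 at 3.32, Nr1h3 at 2.95 and Gas6 at 3.59 lie within the range of the receptors, while the engulfment machinery lies mostly near 0.

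The genes with levels most like those of each receptor were sought over 17 ZsG-positive clusters, by Pearson r of log2 CPM with 10 added. The clusters share 1 library and include some without a name, and r is a description. A gene needed at least 100 UMIs over them. For Mertk they were Vcam1 (r = 0.94), Gdf3 and Acp2, for Axl Il18bp (0.93), Creb5 and Slc7a7, and for Itgb5 Rnase4 (0.93), Fgd4 and Lipa. For Msr1 they were Ccl2 (0.99) and Slc11a1, and for Cd36 P2rx7 (0.95), Cd93 and Ccl7. For Stab1 they were Akr1b8 (0.96), Itga9 and Ms4a7, for Mrc1 Clmp (0.92), Siglec1 and Creb5, and for Folr2 Ms4a14 (0.94), Itsn1 and Ccl8. Akr1b8, Itga9 and Ms4a14 had few UMIs, with 105, 239 and 173. Among the receptors themselves, Stab1 and Folr2 (0.92) and Msr1 and Cd36 (0.91) were most alike, and Axl and Itgb5 (0.46) least.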

How the data were processed

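CD45+ tumor-infiltrating cells were profiled with the 10x Genomics 3′ kit (v3.1), and the authors processed the reads with Cell Ranger 6.1.2 against mm10 and combined the libraries with its aggr step. That step can equalise read depth between libraries, and whether it did here is not stated. The deposited matrix holds whole UMI counts per gene and cell, and the barcode suffix gives the gate. The members and all gene lists were chosen with earlier results of these data known, and the rule for naming clusters was set after the clusters were seen. Depth and intervals are given with the results.

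Cells with at least 1000 and fewer than 6000 genes and under 10% mitochondrial UMIs were kept, as in the study. Seurat 5.3.0 (R 4.3.3) clustered them on 2000 variable genes and 20 components, at resolution 0.8, and at 0.5 for monocytes and macrophages, leaving out the receptors, uptake and pigment genes. Scrublet (scanpy 1.11.5) called 1 and 0 doublets, so its calls could not serve as a filter, and no cell was removed. Whether its scores mark doublets in these data was not tested. Counts were summed per class and library and divided by the class total, and intervals and ratios were computed with scipy 1.17.1 and exact binomial or Poisson limits at 95%. Thinning drew 2000 or 3000 UMIs from each cell. The steps were tested on simulated data. TMM factors came from edgeR 4.0.16. The 9 receptors were described in full, with other uptake genes by role, up to 4 per role with the most macrophage UMIs, and the 3 genes most like each receptor, of which 1 is not reported here. The T cell sort was not used, and Clec7a was not analysed here.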

Additional observations from a re-analysis of the deposited data

How the results depend on the processing

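No paired analysis was possible because each gate gave 1 library, and for the same reason no replicate could be left out. The count of receptors higher in macrophages than in monocytes was 7 under all 17 alternatives, and that over dendritic cells was 7 to 8 under 14. The count between the gates in monocytes, 5 in all, became 8 when each cell took the class of its highest marker level, 3 in inflammatory and 1 in non-classical monocytes alone, and Mrc1 then turned to a log2 ratio of -0.052 in inflammatory monocytes. The count with a pigment UMI, 2 in all, was 4 in cells thinned to 2000 UMIs, 1 with at least 2 pigment UMIs and 0 when pigment and receptor UMIs both came from cells thinned to 3000. It was 1 within C1q-high, 2 within Ly6i-led (Mertk and Cd36 in place of Folr2 and Stab1), 0 within hypoxic and 4 within cycling macrophages, and 0 with clusters weighted alike. It was 0 with clusters and 2 depth bins weighted alike together and 1 without the Ly6i-led cluster. For the counts under these alternatives, those with a pigment UMI included, no share over all genes was computed. The exceptions are the 3 in inflammatory and the 1 in non-classical monocytes alone, with shares given above. Folr2 had -0.33 within Ly6i-led cells. The joint weighting of clusters and depth, leaving out the Ly6i-led cluster and adding mixed clusters to macrophages were chosen after seeing the data. The causes were not tested. Shares of cells with a UMI are limited by depth, and the ZsG-negative macrophages, 2 cells, allow no statement.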

Other observations

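In the ZsG-positive library, 2 of the clusters without a class raised macrophage markers, 6 and 8 of 8, together with genes of another lineage. Other clusters without a class held fewer ZsG-positive cells and were not described here. Among them was a T-like cluster of 80 cells led by Pf4 and Ccl8. The one with C1q and DC2 genes (237 cells) had Axl at 110 CPM (101 to 120), Mrc1 at 137, Cd36 at 104, Msr1 at 178, Stab1 at 26.5 and Folr2 at 15.3. Its cells were deep, with a median of 19308.5 UMIs and a median doublet score of 0.119, above the 0.0647 of C1q-high macrophages. The one with macrophage and T or NK genes (195 cells) had Axl at 73.8 CPM, Mrc1 at 129, Msr1 at 247, Stab1 at 50.1 and Folr2 at 28.8, with a median doublet score of 0.127. Whether these cells are doublets was not tested.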
